A study of Homo sapiens with 14 samples.

Results

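The 47 genes described here encode the machinery that copies DNA once per cell cycle. They were taken by symbol from a list of replication subunits, and each matched exactly 1 of the 60624 Ensembl identifiers in the expression files. By role they comprise 9 origin licensing genes (ORC1 to ORC6, CDC6, CDT1 and GMNN), the 6 subunits of the MCM2-7 helicase, 4 genes of helicase activation (MCM10, CDC45, CDC7 and DBF4), the 4 GINS subunits, 9 polymerase and primase subunits, the clamp PCNA with its 5 loader subunits RFC1 to RFC5, 5 genes of single-strand protection and flap joining (RPA1 to RPA3, FEN1 and LIG1) and 4 enzymes of nucleotide supply (RRM1, RRM2, TYMS and TK1). All 47 were at or above 1 TPM in all 14 libraries, and the lowest value was 1.73 TPM, for ORC1 in SC-β. In GENCODE 44 on GRCh38 all 47 are protein-coding, among them PCNA on the minus strand at chr20:5114953-5126626, RRM2 on the plus strand at chr2:10120698-10211725, POLE on the minus strand at chr12:132623753-132687376 and ORC6 on the plus strand at chr16:46689643-46698394. Processed pseudogenes are annotated for DBF4, FEN1, ORC1, PCNA, POLD2, RFC3, RFC5, RPA2, RPA3, RRM2 and TYMS, so their levels are less certain than the rest.

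Before S phase, the origin recognition complex with CDC6 and CDT1 loads the MCM2-7 ring onto DNA, and geminin (GMNN) binds CDT1 to prevent a further round of loading. The kinase CDC7 with its partner DBF4, together with MCM10, CDC45 and GINS, turns the loaded ring into an active helicase, after which polymerase α with primase starts each strand, polymerases δ and ε extend them on the PCNA clamp, and FEN1 and LIG1 join the lagging-strand pieces. Many of these genes are transcribed in late G1 and S phase under E2F factors and are low in cells that have left the cycle, as most β cells have, while pancreatic progenitors divide.

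All libraries came from MEL1, a human embryonic stem cell line in which 1 INS allele carries GFP. Batch 1 held 1 library each of hPSC (undifferentiated cells on mouse CF1 feeder cells), DE (definitive endoderm), PP2 (PDX1+NKX6.1+ pancreatic progenitors made stage by stage) and SC-β (the β-like product of the same direct route). Batch 2 held 2 libraries each of ePP-P9 and ePP-P21, which are expandable pancreatic progenitors (ePPs) at passages 9 and 21 grown on feeder cells in a medium with EGF, bFGF, an inhibitor of the TGFβ pathway and I-BET151, and of ePP-β, the β-like cells differentiated from ePPs. Batch 3 held 2 libraries each of pancreatic progenitors given DMSO or 1 μM I-BET151, a BET bromodomain inhibitor, for 7 days in the same basal medium, so both ePP groups carried the inhibitor that defines 1 arm of batch 3. The passage from which ePP-β cells were made was not given, and nothing states whether replicates were separate cultures, so p-values measure only the spread between these libraries.

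Values are TPM, which express each gene's length-adjusted abundance relative to the whole library, and the read depth behind them is unknown. Each of the 37 mitochondrially encoded genes had the value 0 throughout, so a 0 may be a value that was never estimated. Ribosomal protein genes took 9.89% of TPM in SC-β, 11.0% in PP2 and between 15.1% and 28.1% in the other 12 libraries. Some markers matched the labels, with POU5F1 at 3401 TPM in hPSC and SOX17 at 1140 TPM in DE. PDX1 was 251 TPM in PP2 and between 124 and 134 TPM in the 4 ePP libraries. INS was 20657 TPM in SC-β and 10916 and 17374 TPM in ePP-β. Other markers from the same lists did not follow the labels. The pluripotency marker LIN28A was 460 TPM in hPSC, 625 TPM in DE and 276 TPM in PP2. The endoderm marker CXCR4 was 105 TPM in DE against 147 and 226 TPM in ePP-β. The progenitor marker PTF1A was higher in SC-β than in PP2 and at most 0.119 TPM in ePPs. NKX6-1 was 23.5 TPM in PP2 against 176 to 213 TPM in ePPs. The 6 mesenchyme markers summed to 1334 TPM in PP2 and 2570 TPM in SC-β against 40.8 to 92.6 TPM in batch 2, and the part of such cells in the results on PP2 and SC-β was not tested.

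Promoter sequence is shown because 31 of the 47 genes fell together between ePPs and ePP-β cells, as described further on. RefSeq promoter windows (GRCh38.p14), from 250 bases before to 50 bases after the start site, were found for 41 of the 47 genes and searched on both strands for 4 spellings of an E2F element, TTTCCCGC, TTTCGCGC, TTTGCCGC and TTTGGCGC, which can overlap each other. The letters occurred for 20 of 41 members (48.8%), against 3.99% of the 27305 genes with a window and 5.4% of the 15843 protein-coding genes with a window. By class they occurred for 4 of 4 MCM genes with a window, 3 of 3 GINS genes, 4 of 9 licensing genes, 4 of 8 polymerase genes, 2 of 6 clamp and loader genes, 1 of 3 single-strand protection and flap joining genes, 1 of 4 helicase activation genes and 1 of 4 nucleotide supply genes. The CCAAT box (CCAAT) occurred for 24 of 41 members (58.5%) against 39.7% of all genes with a window, and the CHR element (TTTGAA or TTCGAA) for 3 of 41 (7.32%) against 19.5%. Any of a gene's windows could hold the match, and 10 members had 2 or more. Among members lower in ePP-β cells by the test given further on, 14 of 28 held E2F letters, and among the others 6 of 13. A match of letters is a description of the window and shows neither binding nor regulation.

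The 120 bases just upstream of the start site are printed for 6 members whose RefSeq start lay within 5 bases of the GENCODE gene edge, 4 with an E2F spelling in this stretch (CDT1, MCM6, PCNA and TYMS) and 2 without (ORC1 and FEN1). They run 5′ to 3′ on the strand of the gene, and capitals mark the E2F letters. In MCM6 the capitals hold 2 overlapping matches, 1 on each strand.
CDT1 (chr16:88803669-88803788, plus strand): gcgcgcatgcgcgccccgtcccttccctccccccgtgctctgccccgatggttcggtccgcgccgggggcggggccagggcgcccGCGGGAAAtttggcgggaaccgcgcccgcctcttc
MCM6 (chr2:135876444-135876563, minus strand): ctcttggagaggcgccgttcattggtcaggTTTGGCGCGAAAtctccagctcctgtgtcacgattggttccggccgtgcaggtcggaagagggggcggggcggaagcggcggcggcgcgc
PCNA (chr20:5126627-5126746, minus strand): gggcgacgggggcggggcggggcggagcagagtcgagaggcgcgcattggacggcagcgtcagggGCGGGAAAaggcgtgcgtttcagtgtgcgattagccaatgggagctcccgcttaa
TYMS (chr18:657533-657652, plus strand): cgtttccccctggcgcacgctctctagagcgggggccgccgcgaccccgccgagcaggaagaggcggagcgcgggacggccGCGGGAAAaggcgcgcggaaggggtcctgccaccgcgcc
ORC1 (chr1:52404424-52404543, minus strand): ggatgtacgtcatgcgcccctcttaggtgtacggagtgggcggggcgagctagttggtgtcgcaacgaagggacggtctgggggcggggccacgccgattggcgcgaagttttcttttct
FEN1 (chr11:61792791-61792910, plus strand): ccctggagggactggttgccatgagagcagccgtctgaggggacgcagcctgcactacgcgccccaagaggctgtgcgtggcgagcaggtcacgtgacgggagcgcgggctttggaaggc

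Across the 9 groups, replication genes were high in PP2, ePPs and progenitors given I-BET151 and low in both kinds of β-like cells, while progenitors given DMSO ranked below hPSC and beside DE. The summed level of the 47 members was 3326 TPM in PP2, 3207 ± 77.7 in ePP-P9 and 3103 ± 209 in ePP-P21 (SD, n = 2 each), 2961 ± 192 with I-BET151 (n = 2), 2667 in hPSC, 1769 ± 113 with DMSO (n = 2), 1718 in DE, 1289 ± 8.82 in ePP-β (n = 2) and 838 in SC-β. As a share of the library this was 0.351% in PP2 and 0.0891% in SC-β. The libraries of neighbours in that order overlapped for ePP-P9 (3152 and 3262 TPM), ePP-P21 (2955 and 3250 TPM) and I-BET151 (2825 and 3097 TPM), and DE lay between the DMSO libraries (1689 and 1848 TPM). In bulk RNA, fewer cycling cells and less of each transcript per cycling cell cannot be told apart.

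**Figure D1:**
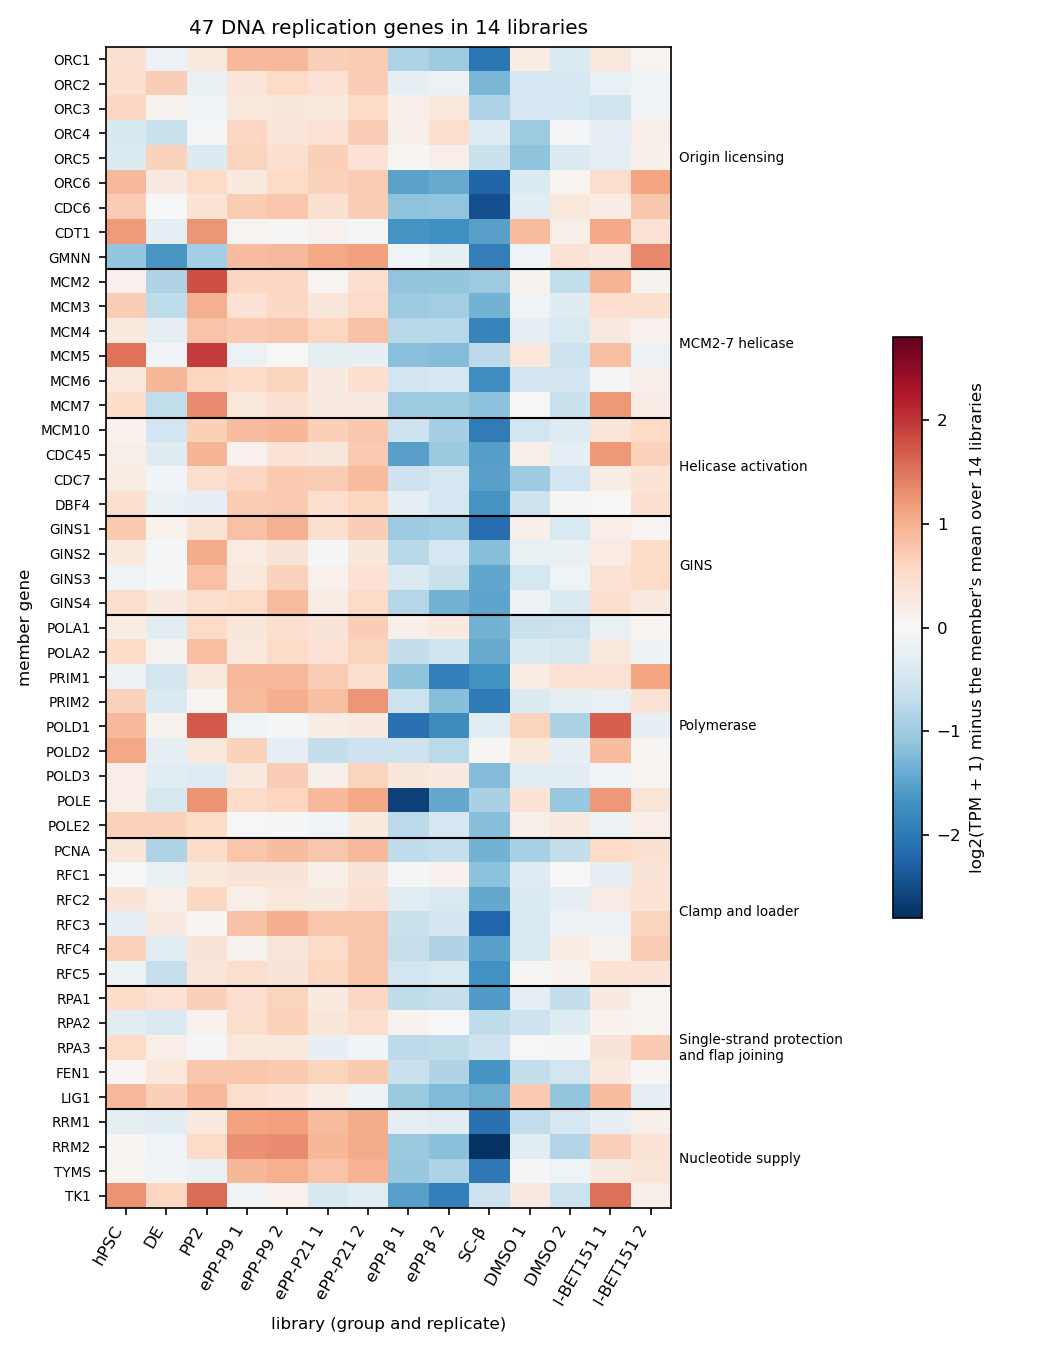
Heat map of the 47 members (rows, grouped by class) in the 14 libraries (columns), with colour giving log2(TPM + 1) minus the member's own mean over all libraries. The SC-β column is the lowest for most rows and the 2 ePP-β columns are next. ORC3, ORC4, ORC5, POLA1 and POLD3 lie at or above their own means in ePP-β.

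SC-β had the lowest group level for 37 of 47 members and ePP-β for 8. Of the other 2, ORC5 was lowest with DMSO and ORC4 in DE. The highest level fell in PP2 for 17 members, ePP-P9 for 14, ePP-P21 for 7, hPSC for 5 and DE for 4. In no case did it fall in DMSO, I-BET151 or a β-like group. The same counts were not made over all genes. The groups lie in 3 batches, and some are single libraries, so a rank across batches cannot be told apart from batch. The order of the groups differed by class. On the mean of log2(TPM + 1), the MCM2-7 genes were highest in PP2 (7.37, against 6.57 in ePP-P9). Nucleotide supply was highest in ePP-P9 (6.78) and origin licensing in ePP-P21 (5.31, against 4.82 in PP2). PP2 is 1 library of batch 1 and the ePPs are in batch 2, so these class orders cannot be told apart from batch. Across the 47 members the difference from PP2 to ePPs ran with transcript GC content (Pearson r = -0.769). The part of GC content in the class orders was not tested.

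**Figure D2:**
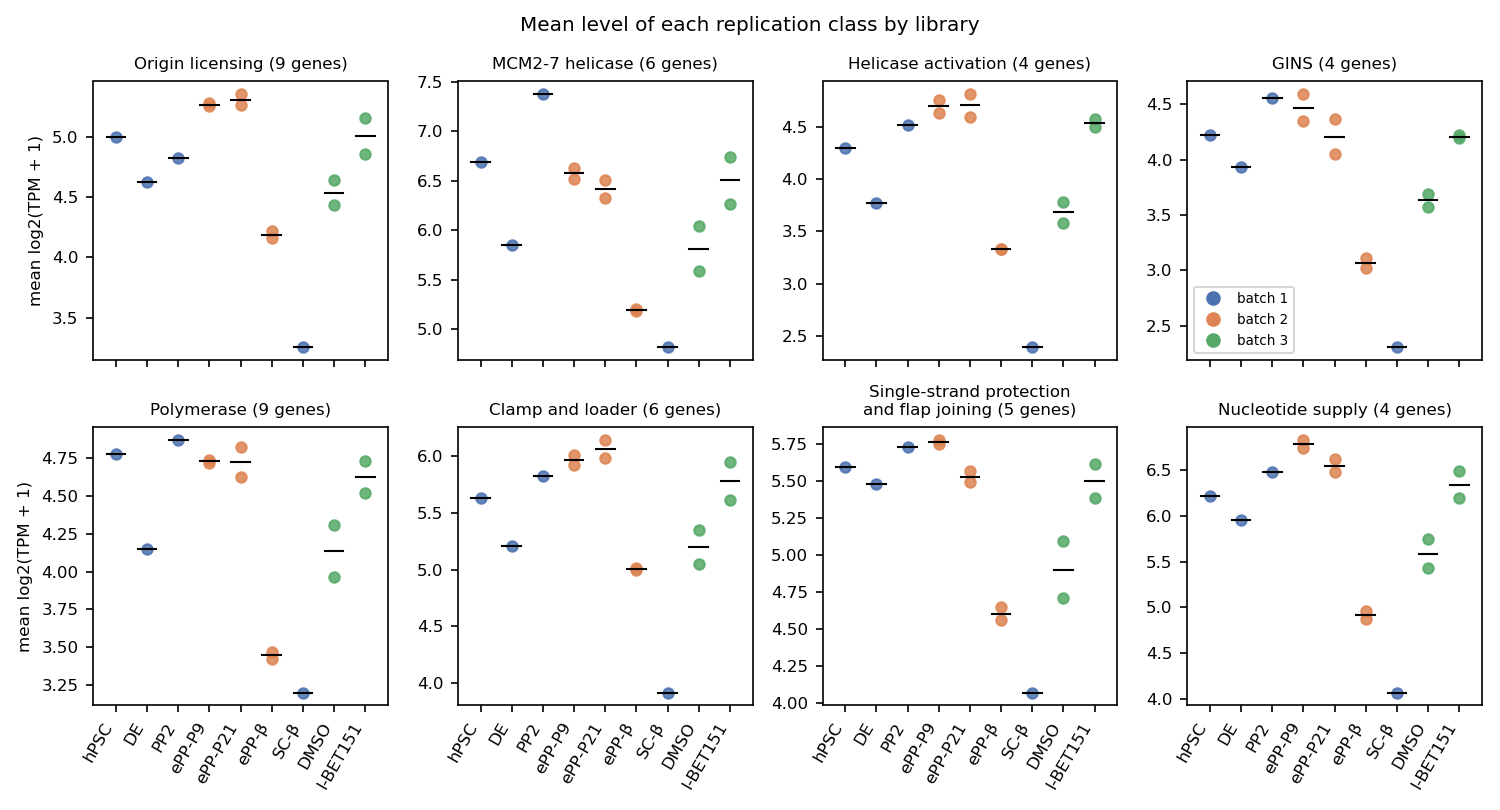
Mean log2(TPM + 1) over the genes of each of the 8 classes (vertical axes, separate scales) for each library (points, coloured by batch) in the 9 groups, with a bar at the group mean. In every class SC-β is lowest and ePP-β next, and in every class both I-BET151 libraries lie above both DMSO libraries.

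ePP-β cells were compared with ePPs, 2 libraries against 4 from the same batch. The comparison asks what happens to the replication machinery when expanded progenitors are taken to the β-like stage. The ePP medium held EGF, bFGF and I-BET151, and the paper's media for the later differentiation stages list none of them. Stage and medium therefore changed together and cannot be told apart here. Of 47 members, 31 fell by more than 2-fold (limma on log2(TPM + 1), Benjamini-Hochberg adjusted p under 0.05 and a log2 fold change beyond 1), against 9.86% of the 18076 genes tested. At the adjusted p alone 41 fell, against 28.2% of genes, and none rose, against 17.9% of genes that rose by more than 2-fold. In 44 members both ePP-β libraries lay below all 4 ePP libraries, as for 31.6% of genes, and the other 3 were POLD2, POLD3 and ORC4. The median log2 fold change of the members was -1.31, beside -0.03 over all genes tested, and the summed level was 2.45-fold higher in ePPs. CD68, a macrophage lysosomal gene, was 63.5 and 68.9 TPM in ePP-β and 3.26 to 5.82 TPM in ePPs, while PTPRC, which marks blood cells, was at most 0.0138 TPM in every library, and mesenchyme markers summed to 53.4 and 40.8 TPM in ePP-β and 59.5 to 92.6 TPM in ePPs. The 3 neuron markers summed to 1064 and 1080 TPM in ePP-β, nearly all of it STMN2, and to 0.197 to 2.40 TPM in ePPs, with ELAVL3 and MAP2 at most 4.55 TPM. The part of such cells in the result was not tested.

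Nucleotide supply fell most as a class, with 4 of 4 members called and a median log2 fold change of -1.71. RRM2, the small subunit of the ribonucleotide reductase that makes deoxynucleotides, was 111 and 114 TPM in ePPs at passage 9, 87.1 and 93.5 TPM at passage 21, and 21.6 and 19.6 TPM in ePP-β. Its groups did not overlap, and its log2 fold change was -2.24 ± 0.08 (SE, adjusted p = 1.12e-05). The fold changes of the other 3, which make thymidylate (TYMS), recover thymidine (TK1) or form the large reductase subunit (RRM1), lay between -1.89 and -1.33. TYMS overlaps ENOSF1 on the opposite strand, and strand use was not stated, so their reads cannot be told apart.

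All 6 genes of the MCM2-7 ring, the motor of the replicative helicase, fell at the adjusted p, 5 of them by more than 2-fold and MCM6 just short of that size. MCM2 was 95.6 and 96.2 TPM in ePPs at passage 9, 67.8 and 88 TPM at passage 21, and 29.2 and 29.5 TPM in ePP-β. MCM7 was 239 and 261 TPM in ePPs at passage 9, 229 and 230 TPM at passage 21, and 94.6 and 96.8 TPM in ePP-β. Both showed ePP-β libraries that agreed closely and lay far below every ePP library. The log2 fold changes were -1.52 ± 0.11 for MCM2 (adjusted p = 0.00013), -1.51 ± 0.08 for MCM4, -1.46 ± 0.09 for MCM3, -1.31 ± 0.06 for MCM7 (adjusted p = 2.99e-05) and -1.03 ± 0.09 for MCM5.

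MCM6 was 60.7 and 64.3 TPM in ePPs at passage 9, 49.2 and 57.7 TPM at passage 21, and 28.2 and 29.2 TPM in ePP-β. It fell by 0.98 on the log2 scale (SE 0.09, adjusted p = 0.000312), close to the change of MCM5. MCM3 was 124 and 140, 118 and 136, and 45.6 and 46.8 TPM in ePP-P9, ePP-P21 and ePP-β, and MCM4 was 106 and 110, 97.3 and 114, and 36.7 and 36.9 TPM. MCM5 was 30.5 and 34.4, 28.2 and 29.4, and 14.6 and 14.3 TPM in the same groups, and was the least abundant subunit in all 6 libraries of batch 2. The most abundant subunit, MCM7, exceeded MCM5 by 7.57 to 8.13 times in ePPs and by 6.46 and 6.75 times in ePP-β.

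**Figure D3:**
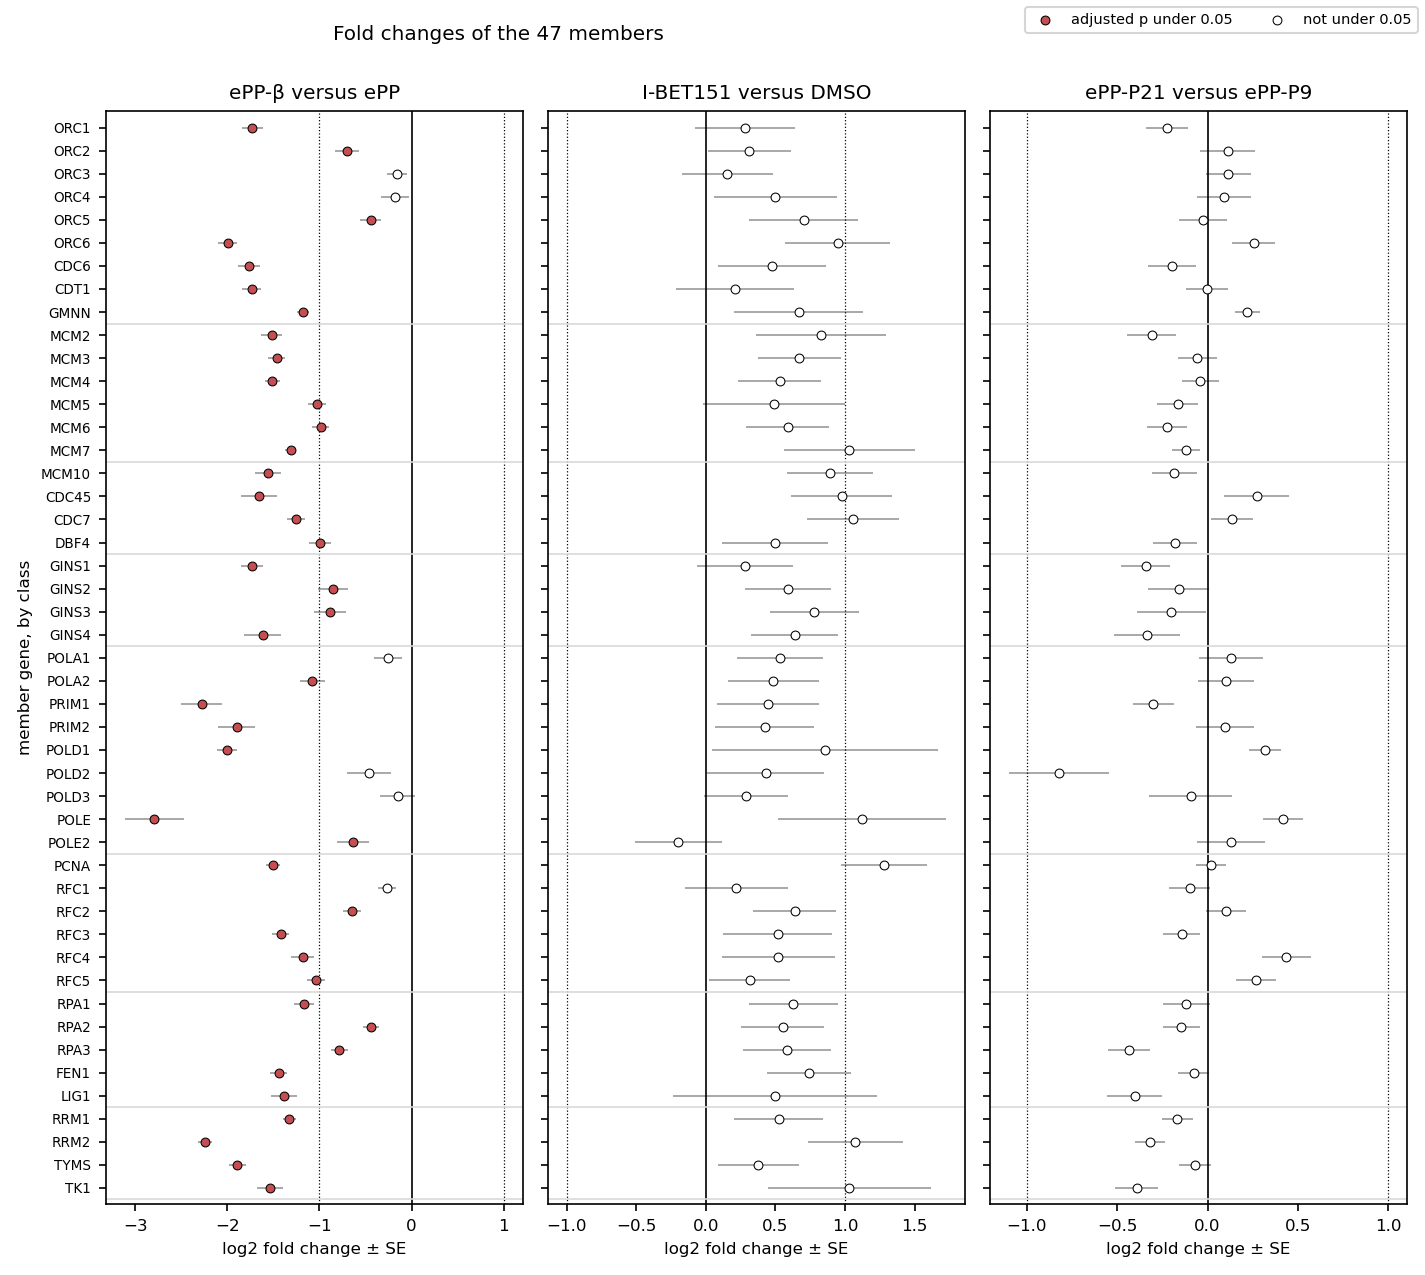
Log2 fold change on the log2(TPM + 1) scale for each of the 47 members (points, grouped by class) in the 3 comparisons with replicates, with bars of 1 SE, dotted lines at -1 and 1, and filled points where the adjusted p was under 0.05. Every point lies below 0 in ePP-β versus ePP, 46 of 47 above 0 in I-BET151 versus DMSO without any passing, and 30 of 47 below 0 in ePP-P21 versus ePP-P9.

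In helicase activation and GINS, the factors that switch the loaded ring on, 5 of 8 members fell by more than 2-fold and all 8 at the adjusted p alone. CDC45, which joins the ring and GINS to form the active helicase, was 22.1 and 26.5 TPM in ePPs at passage 9, 25.2 and 34.2 TPM at passage 21, and 6.43 and 9.37 TPM in ePP-β, a log2 fold change of -1.66 ± 0.20 (adjusted p = 0.000798). GINS1, a subunit of that helicase, was 33 and 37.1 TPM, 25 and 29.9 TPM, and 8.39 and 8.84 TPM, a log2 fold change of -1.73 ± 0.12 (adjusted p = 8.84e-05). In both genes the ePP-β libraries lay below every ePP library by a wide margin. CDC7, the kinase that triggers activation, fell by 1.25 on the log2 scale and its partner DBF4 by 0.99.

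Origin licensing was split. ORC6 was 44.2 and 53.5 TPM in ePPs at passage 9, 56.9 and 59.6 TPM at passage 21, and 12.2 and 13 TPM in ePP-β, a log2 fold change of -1.99 ± 0.10 (adjusted p = 3.83e-05). ORC1, CDC6 and CDT1, which complete the origin complex or load MCM2-7, were picked after their values were seen and fell by 1.73, 1.77 and 1.73 on the log2 scale. By contrast ORC3, a core subunit of the origin complex, was 28.8 and 29.2 TPM in ePPs at passage 9, 28.7 and 34.5 TPM at passage 21, and 25.6 and 28.4 TPM in ePP-β, a log2 fold change of -0.16 ± 0.11 (adjusted p = 0.257). ORC4, another core subunit, was 26.9 and 22.9, 24 and 29.3, and 19.9 and 25.5 TPM, with overlapping groups and a log2 fold change of -0.18 ± 0.15 (adjusted p = 0.347). ORC2 and ORC5 fell by 0.70 and 0.44, less than 2-fold.

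Levels of the origin complex genes relative to each other also differed. The ratio of ORC1 to ORC3, in TPM, was 0.70 and 0.69 in ePP-P9, 0.58 and 0.51 in ePP-P21, and 0.20 and 0.16 in ePP-β. GMNN, the inhibitor of CDT1, was 369 and 381 TPM in ePPs at passage 9, 428 and 446 TPM at passage 21, and 187 and 170 TPM in ePP-β, a fall of 1.18 on the log2 scale. CDT1 was 25.1 and 24.5, 26.1 and 23.5, and 6.92 and 6.58 TPM. The ratio of GMNN to CDT1 lay between 14.7 and 19.0 in the 4 ePP libraries and was 27.0 and 25.8 in ePP-β. These ratios were formed after the values were seen and were not tested.

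**Figure D4:**
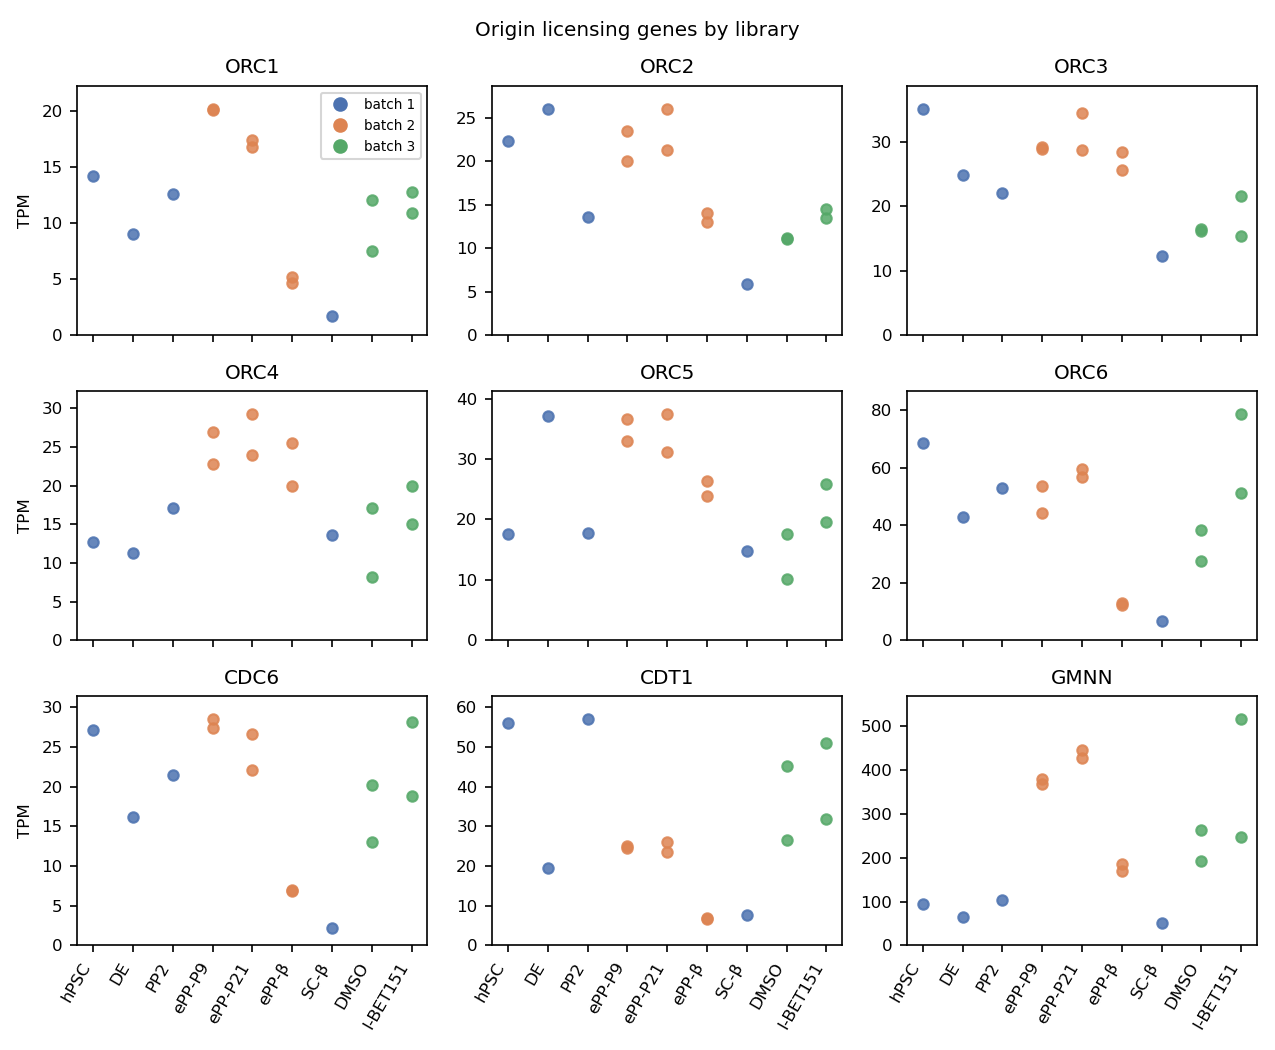
TPM of the 9 origin licensing genes (panels, linear axes from 0) in every library (points, coloured by batch) of the 9 groups. ORC1, ORC6 and CDT1 are near the bottom of their range in ePP-β, while ORC3 stays between 25.6 and 28.4 TPM there, close to its 28.7 to 34.5 TPM in ePPs.

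Among the polymerases, POLE, the catalytic subunit of polymerase ε that extends the leading strand, had the largest change of any member. It was 27.3 and 29.3 TPM in ePPs at passage 9, 36.1 and 40.4 TPM at passage 21, and 2.23 and 6.39 TPM in ePP-β, a log2 fold change of -2.79 ± 0.32 (adjusted p = 0.000676). Its ePP-β libraries differed by more than those of most members but lay far below every ePP library. PRIM1 and POLD1, the primase subunit that makes RNA primers and the catalytic subunit of polymerase δ, were picked after their values were seen and fell by 2.28 and 2.00. PRIM1 overlaps NACA on the same strand, and POLD1 overlaps another protein-coding gene on the same strand. The reads of PRIM1 and POLD1 therefore cannot be fully separated.

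Polymerase genes POLA1, POLD2 and POLD3 did not pass the adjusted p, and POLE2 passed it but fell by less than 2-fold. POLA1, the catalytic subunit of polymerase α, was 9.23 and 10.2 TPM in ePPs at passage 9, 9.51 and 12.1 TPM at passage 21, and 7.99 and 8.81 TPM in ePP-β, a log2 fold change of -0.26 ± 0.15 (adjusted p = 0.191). POLD3, an accessory subunit of polymerase δ, was 13.7 and 18.7, 12.5 and 17.9, and 14.2 and 13.5 TPM, a log2 fold change of -0.15 ± 0.19 (adjusted p = 0.534). In POLD3 the groups overlapped. POLD2, the subunit that bridges polymerase δ, was 158 and 85.2, 63.4 and 67.2, and 66.7 and 59.6 TPM, a log2 fold change of -0.46 ± 0.24 (adjusted p = 0.143). The value of 158 TPM came from ePP-P9 replicate 1 alone, and the other 5 libraries lay between 59.6 and 85.2 TPM.

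The PCNA clamp, which tethers the polymerases to DNA, was 351 and 370 TPM in ePPs at passage 9, 346 and 385 TPM at passage 21, and 124 and 131 TPM in ePP-β. Its log2 fold change was -1.50 ± 0.07 (adjusted p = 2.81e-05), a 2.85-fold higher TPM in ePPs. Of the loader subunits RFC3, RFC4 and RFC5 also fell by more than 2-fold and RFC2 by 0.65, whereas RFC1, the large subunit, was 30.5 and 30.3, 26.5 and 30.3, and 23 and 25.4 TPM, a log2 fold change of -0.27 ± 0.10 (adjusted p = 0.0572). FEN1, the nuclease that trims Okazaki fragments, was 94.4 and 92.6 TPM, 84.8 and 92.7 TPM, and 35.4 and 30.5 TPM, a log2 fold change of -1.44 ± 0.09 (adjusted p = 6.62e-05). FADS2 overlaps FEN1 on the same strand, so the reads of FEN1 cannot be fully separated. Of the single-strand binding subunits RPA1 fell by 1.17 and RPA2 by 0.44.

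Other genes of the same pathways were taken from lists, and 9.86% of all genes tested fell by more than 2-fold. Of 23 further replisome and checkpoint genes, 15 fell by more than 2-fold and 22 at the adjusted p alone, led by RECQL4 (-2.30) and CHTF18 (-2.26). The exception was POLD4, the smallest subunit of polymerase δ, picked after its values were seen, at 0.37 ± 0.16 (adjusted p = 0.0958) with both ePP-β libraries above all 4 ePP libraries. CHTF18 differed between its ePP-β libraries, at 1.66 and 8.16 TPM, and its change had an SE of 0.47. Of 7 histone supply genes 6 fell by more than 2-fold, led by the chromatin assembly factors CHAF1A (-2.29) and ASF1B (-2.26). Of 16 genes of S-phase control 9 fell that far, led by SKP2 (-2.08) and cyclin E1, CCNE1 (-1.87), as did 8 of 8 mitotic genes, led by the kinases AURKB (-2.27) and PLK1 (-1.98). Among 9 other genes of nucleotide metabolism 3 fell, led by DTYMK (-1.33) and SAMHD1 (-1.14), and TK2, the mitochondrial thymidine kinase, rose by 1.00 (adjusted p = 0.00166).

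The comparison of I-BET151 with DMSO, 2 libraries against 2, asks whether the inhibitor changes the machinery in progenitors kept for 7 days. No member passed the test in either direction, where 1 of the 16687 genes tested was higher (0.00599%) and 34 were lower (0.204%). The lowest adjusted p was 0.156, for PCNA. With DESeq2 the paper reports far more genes changed in this comparison, and PCNA as increased. A fit that calls so few genes cannot show that the members were unchanged. At an unadjusted p under 0.05 there were 5 members, all higher (PCNA, CDC7, RRM2, MCM10 and CDC45), beside 2536 of the 16687 genes (15.2%). In direction, 46 of 47 members were above 0, beside 60.9% of genes, and POLE2 was below at -0.20. Both I-BET151 libraries lay above both DMSO libraries for 29 members (28.7% of genes) and below for 0 (18% of genes). The median log2 fold change was 0.53, beside 0.16 over all genes, and the summed level was 1.67-fold higher. In a fit of all replicated libraries, which share 1 estimate of the spread, PCNA, CDC7 and RRM2 passed, beside 518 of 19179 genes called higher. At the adjusted p alone 8 members were higher there.

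The differences of single members were large in TPM beside a wide spread between replicates. PCNA was 108 and 128 TPM with DMSO and 301 and 273 TPM with I-BET151, a log2 fold change of 1.28 ± 0.31 (adjusted p = 0.156). The groups did not overlap. CDC7 was 11.3 and 15.8 TPM with DMSO and 27.1 and 31 TPM with I-BET151, a log2 fold change of 1.06 ± 0.33 (adjusted p = 0.236). RRM2 was 36.3 and 25.3 TPM with DMSO and 71.8 and 58.8 TPM with I-BET151, a log2 fold change of 1.07 ± 0.34 (adjusted p = 0.241). ORC6 was 27.5 and 38.3 TPM against 51.2 and 78.8 TPM, a log2 fold change of 0.95 ± 0.38 (adjusted p = 0.333). In these 4 genes every I-BET151 library exceeded every DMSO library.

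MCM7 was 191 and 125 TPM with DMSO and 449 and 223 TPM with I-BET151, a log2 fold change of 1.03 ± 0.47 (adjusted p = 0.391). MCM3 was 87 and 73.8 TPM against 129 and 128 TPM, MCM4 was 52.8 and 47.1 TPM against 76 and 69 TPM, and MCM6 was 28.7 and 28.1 TPM against 40.3 and 46.2 TPM. MCM2 was 68 and 39.1 TPM against 125 and 68.1 TPM, and MCM5 was 42.2 and 22.7 TPM against 62.9 and 30.6 TPM. The groups overlapped for MCM5 and did not for the other 5, though for MCM2 they nearly met. The log2 fold changes of the 6 lay between 0.49 and 1.03, with adjusted p between 0.381 and 0.708. FEN1 was 34.5 and 38.1 TPM against 66.4 and 56.4 TPM (0.74 ± 0.30), and GINS3, a GINS subunit, 6.62 and 8.78 TPM against 13.1 and 14.5 TPM (0.78 ± 0.32).

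POLE was 24.8 and 8.52 TPM with DMSO and 45.2 and 24.3 TPM with I-BET151, a log2 fold change of 1.12 ± 0.60 (adjusted p = 0.451). In POLE, MCM5 and MCM7 replicate 1 was high and replicate 2 low in both groups. The difference between replicates followed GC content, with Pearson r across genes of -0.511 for DMSO and -0.600 for I-BET151 over all genes and -0.756 and -0.837 over the 47 members, so GC-rich members were lower in replicate 2. The shared source of the points is the pair of libraries, and genes are not independent replicates. With each library corrected for GC content, 0 members were called and the median was 0.54. Ribosomal protein genes took 20.6% and 28.1% of TPM with DMSO and 17.0% and 28.0% with I-BET151.

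Class medians of the log2 fold change were 0.93 for helicase activation, 0.78 for nucleotide supply, 0.63 for MCM2-7, 0.61 for GINS, 0.58 for single-strand protection and flap joining, 0.52 for the clamp and loader, 0.48 for licensing and 0.45 for the polymerases. The 8 mitotic genes had a median of 0.12, with none at an unadjusted p under 0.05 and MKI67 at 0.12 ± 0.50. Histone supply genes had a median of 0.85 (7 of 7 above 0), the further replisome genes 0.60 (22 of 23), other nucleotide metabolism 0.42 (9 of 9) and S-phase control 0.34 (13 of 16), and none passed. CD68 was 122 and 106 TPM with DMSO and 7.68 and 9.07 TPM with I-BET151, with PTPRC at most 0.0138 TPM in both. The 6 mesenchyme markers summed to 229 and 113 TPM with DMSO and 92.0 and 56.0 TPM with I-BET151. The 4 pancreatic progenitor genes that passed the 1 TPM filter were all above 0 in this comparison. PTF1A, the other gene on that list, did not pass it and was at most 0.337 TPM in batch 3. The part of these marker differences in the results was not tested.

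Between ePP-P21 and ePP-P9, 2 libraries against 2, the comparison asks whether long culture alters the machinery. No member passed the test, where 1.07% of the 15822 genes tested were higher and 0.0569% lower, and the lowest adjusted p was 0.106, for RRM2. At an unadjusted p under 0.05 there were 11 members, 4 higher and 7 lower, beside 3641 genes (23%). In direction 17 of 47 were above 0, while 68.1% of all genes were. That count depended on single libraries, being 23 without ePP-P21 replicate 1 and 11 without ePP-P21 replicate 2, and was 7 with each library centred on its median. Both ePP-P21 libraries lay above both ePP-P9 libraries for 6 members (41.3% of genes) and below for 19 (13.1% of genes), and the median log2 fold change was -0.09, beside 0.13 over all genes. The median was -0.01 without ePP-P21 replicate 1, -0.04 without ePP-P9 replicate 2, -0.14 without ePP-P9 replicate 1 and -0.15 without ePP-P21 replicate 2.

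PCNA was 351 and 370 TPM at passage 9 and 346 and 385 TPM at passage 21, with overlapping groups and a log2 fold change of 0.02 ± 0.08 (adjusted p = 0.918), which was -0.19 with each library centred on its median. The 6 MCM genes were all below 0, from -0.31 for MCM2 to -0.04 for MCM4, although leaving out ePP-P21 replicate 1 put MCM3 at 0.05 and MCM4 at 0.07, as were the 4 GINS, 5 single-strand and flap and 4 nucleotide supply genes. RPA3, the smallest subunit of the single-strand binding complex, was 27.7 and 27.5 TPM at passage 9 and 19.1 and 21.2 TPM at passage 21, a log2 fold change of -0.44 ± 0.12 (adjusted p = 0.112). TK1 was 42.8 and 49.9 TPM against 33.3 and 36.7 TPM (-0.39 ± 0.12, adjusted p = 0.141), and GINS1 had -0.34 ± 0.13 (adjusted p = 0.207). RFC4, a clamp loader subunit, was higher, at 49.5 and 59.5 TPM against 67.5 and 80.9 TPM (0.44 ± 0.14, adjusted p = 0.147), with the opposite-strand overlap of EIF4A2 as a limit. POLD2 had the largest difference, -0.82 ± 0.28 (adjusted p = 0.165), which rests on 158 TPM in ePP-P9 replicate 1. Without that library it was -0.38 and did not pass. Without ePP-P9 replicate 2 it was -1.26 (adjusted p = 0.00164), but there the library at 158 TPM is the whole passage 9 group and is assumed to vary like the ePP-P21 libraries. CDC45 had 0.27 ± 0.18 and ORC6 0.26 ± 0.12.

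The 4 libraries of batch 1 follow the direct route from hPSC to SC-β, with 1 library a stage, so no difference here has a replicate check or a test and a gene counts as changed in size only when its log2 difference is beyond 1. From hPSC to DE, 7 of 47 members were lower by that much, a share not far from the 10.9% of 14426 genes, and 1 was higher, beside 7.66%. The 7 were MCM5 (-1.59), CDT1 (-1.48), MCM3 (-1.40), POLD2 (-1.33), MCM7 (-1.19), PCNA (-1.17) and PRIM2 (-1.06), and the 1 was ORC5 (1.04). MCM6 stood against its class at 0.64. Across the members this difference ran with transcript GC content (Pearson r = -0.507, and -0.0956 over all genes), and MCM6 has the lowest GC of its class, 43.2%. The part of GC content in these differences was not tested. Neighbouring steps of the route share a library, DE or PP2, so their differences are not independent.

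From DE to PP2, 12 of 47 members were higher, a share near the 21.7% of 14530 genes, and 1 was lower, beside 6.94%. The largest differences were in helicase genes, with MCM2 at 35.1 and 226 TPM (2.65), MCM5 at 32.6 and 136 TPM (2.02) and MCM7 at 120 and 488 TPM (2.02). ORC5 was the lower one (-1.03). Across the 47 members the difference ran with transcript GC content (Pearson r = 0.606, and 0.234 over all genes). MCM2, MCM5 and MCM7 are GC-rich, at 57.4%, 57.0% and 57.6%. The part of GC content in their lead was not tested. The median of the 47 was 0.54, beside 0.31 over all genes. With each library centred on its median, 7 members were higher, 2 lower and the median was 0.11, and with quantile normalization the median was 0.14.

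From PP2 to SC-β, 39 members were lower, beside 21.9% of 15615 genes, and 0 higher, beside 8.29%. RRM2 went from 66 to 5.81 TPM (-3.30), CDC6 from 21.4 to 2.14 TPM (-2.84), MCM2 from 226 to 31.1 TPM (-2.82) and ORC6 from 53.1 to 6.84 TPM (-2.79). The 8 members short of the size were ORC5, POLD2, ORC4, RPA3, ORC3, RPA2, POLD3 and GMNN, from -0.24 to -0.97. Of these, GMNN was called lower in ePP-β versus ePP and the other 7 were not. The median was -2.15, beside -0.39 over all genes, and mesenchyme markers were high in both PP2 and SC-β. The 3 endothelial markers summed to 61.4 TPM in PP2 (CDH5 22.3, KDR 35.4 and PECAM1 3.74 TPM) and 3.26 TPM in SC-β, and their part in the difference was not tested.

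Comparisons across batches cannot be told apart from batch. From PP2 to ePPs, 2 of 47 members were higher, beside 9.3% of 16379 genes, namely GMNN (1.96) and TYMS (1.11). In the other direction 6 of 47 were lower, beside 20.8%, led by MCM5 (-2.12), TK1 (-1.74) and POLD1 (-1.65). Both shares of the members were below those of all genes. From SC-β to ePP-β, 20 members were higher, beside 20.5% of 17076 genes, led by RRM1 (1.80), GMNN (1.75), RRM2 (1.66) and RFC3 (1.65), and 3 were lower, beside 14.9%, namely POLD1 (-1.61), TK1 (-1.12) and POLE (-1.12). In both, the difference ran with the GC content of the transcript, with r across the 47 members of -0.769 and -0.776 and over all genes of -0.500 and -0.594. Members ran from 37.7% GC in DBF4 to 64.3% in CDT1, and a correction of each library for GC content left 1 member higher and 1 lower from PP2 to ePPs, and 7 higher and 0 lower from SC-β to ePP-β. Centring each library on its median gave 8 higher from PP2 to ePPs and 10 higher from SC-β to ePP-β.

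**Figure D5:**
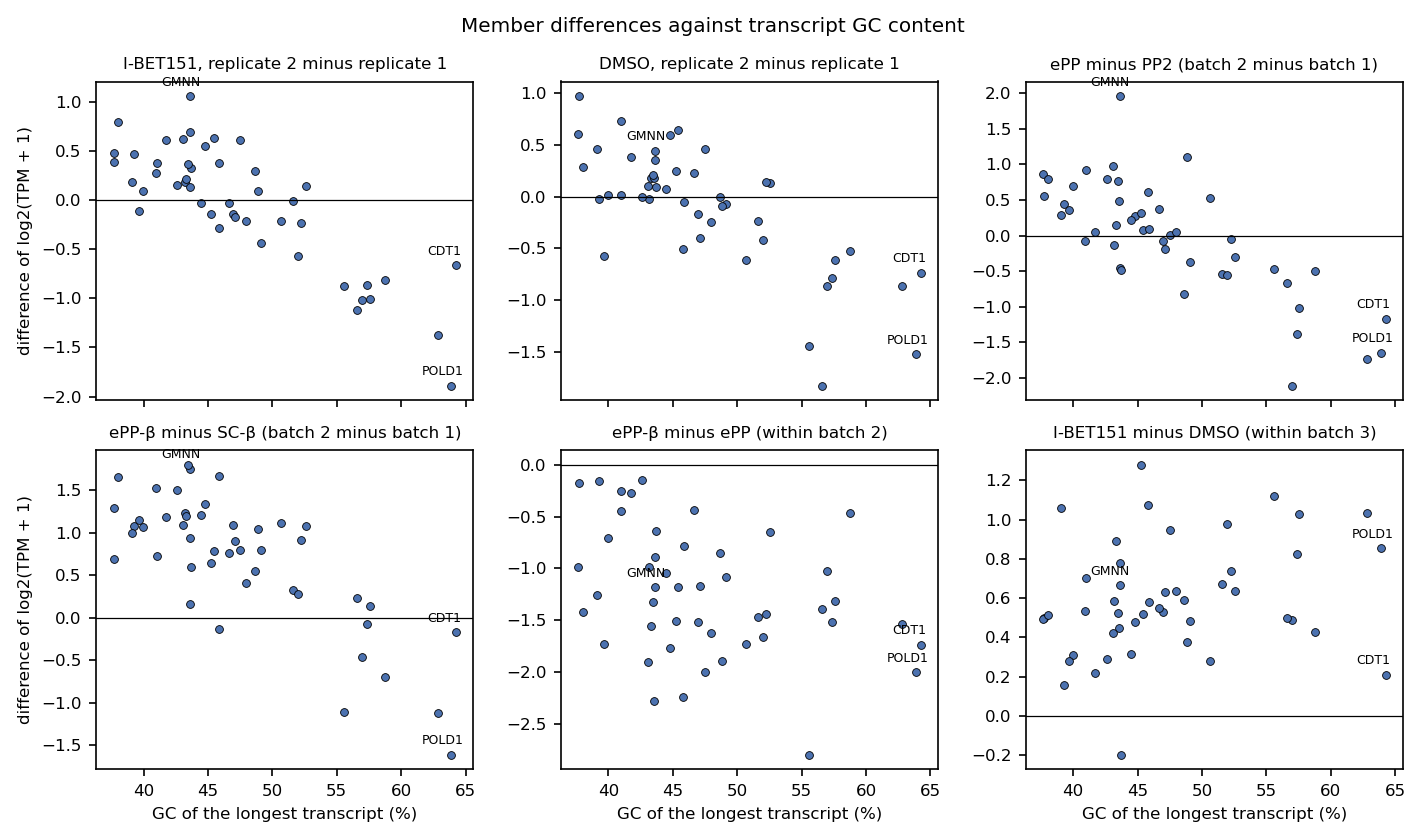
Difference in log2(TPM + 1) (vertical axis) against transcript GC content in percent (horizontal axis) for the 47 members (points) in 6 contrasts (panels, each with its own vertical scale). GC-rich members lie low in the replicate differences of batch 3 and in the cross-batch comparisons, while the ePP-β versus ePP points show a weaker slope (r = -0.359).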

How the data were processed

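RNA was sequenced from 14 libraries in 9 groups and 3 batches. The authors deposited TPM values per Ensembl gene, made with HISAT2 2.1.0 against GRCh38/hg38 and StringTie. The annotation release, strand use and handling of multiply mapped reads were not given in the sources used here, and the authors' own tests used DESeq2, which needs counts. TPM keeps no depth, so no counting interval was given.

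Identifiers were matched to GENCODE 44 (60370 of 60624). Genes at 1 TPM or more in at least 2 libraries of a comparison were tested as log2(TPM + 1) with limma 3.58.1 in R 4.3.3, with an intensity trend and two-sided Benjamini-Hochberg adjusted p. Because of the added 1, low genes appear to change less than their TPM does. A call needed an adjusted p under 0.05 and a log2 fold change beyond 1. Comparisons with 1 library a group, and those between batches, have no test and count genes past that fold. The fit was run on simulated data with independent noise and large changes. Noise there was smaller than the spread in batch 3, so the run does not show how the fit performs in that batch. Figures were drawn with Python 3.11.15 and matplotlib 3.10.9.

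The members and gene lists were chosen with earlier results of these data known. Genes named are each MCM subunit, PCNA, the member of each class with the largest absolute log2 fold change per comparison, the members not passing the adjusted p in ePP-β versus ePP, and for other pathway lists up to 2 genes per direction that passed. Others named were picked after their values were seen. Alternatives were pseudocounts of 0.1 and 0.01, no filter and a filter of 5 TPM, median centring, quantile normalization, the replicate number as a block, all replicated libraries in 1 fit, each library left out and GC correction (loess span 0.3). Protein sequences were not analysed here.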

Additional observations from a re-analysis of the deposited data

How the results depend on the processing

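The fall of the members in ePP-β cells held under every alternative run: 30 to 33 were called lower with a library left out, 31 with the replicate block and 33 with the replicate block and GC correction, and the median lay between -1.33 and -1.28 with a library left out and at -1.45 with median centring. In I-BET151 versus DMSO the replicate block gave 6 members called higher (13 at the adjusted p alone, beside 828 genes called higher), the replicate block with GC correction 6 (18 at the adjusted p alone), and the fit of all replicated libraries 3. With a library left out the median lay between 0.54 and 0.67, and MCM5 was -0.02 without I-BET151 replicate 1. Nothing states that replicate numbers mark a shared culture or day. The replicate differences of DMSO and I-BET151 correlated at r = 0.675 across genes (0.853 across the members, 37 of 47 with the same sign), those of ePP-P9 and ePP-P21 at -0.009 (0.361 across the members), and with 2 replicates a group the numbers were not taken to pair the libraries. The block changed no other count of members called by over 1.5 times.

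In ePP-P21 versus ePP-P9 the median was -0.30 with median centring, which moved the median of all genes from 0.13 to -0.07, and 0 to 1 members were called lower with a library left out. GC correction, alone and with the block, was chosen after seeing the data. It left 0 members higher in DE versus hPSC. In PP2 versus DE median centring gave 7 members higher, 2 lower and a median of 0.11, quantile normalization 2 lower and 0.14, and GC correction 0 lower and 0.73. In SC-β versus PP2 the median was -2.25 and -2.27 with pseudocounts of 0.1 and 0.01, -1.71 with median centring and -1.75 with quantile normalization. In ePP versus PP2 median centring gave 8 members higher and a median of 0.33, quantile normalization 8 and 0.31, and GC correction 1 higher, 1 lower and -0.17. In ePP-β versus SC-β median centring gave 10 higher and 0.70, quantile normalization 12 and 0.75, and GC correction 7 higher, 0 lower and 0.54. Apart from the alternatives' own construction, the cause was not tested. Depth is unknown, so the counting error of low members such as ORC1 in SC-β cannot be given.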
